A study of Mus musculus with 15 samples.

Results

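The mitosis genes described here are a named list of 40 genes for the kinases, checkpoint proteins, kinetochores, motors and structural proteins that a cell uses to divide its chromosomes. Of these, 39 were measured, among 22180 genes in all. Each of the 39 had exactly 1 probe set whose platform annotation gave only that gene's symbol, and Sgol1 is carried on the array under its current symbol, Sgo1. Ccnb1, one of the mitotic cyclins, was not analysed here.

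The cells were melanocytes (pigment cells) of the immortal mouse line melan-Ink4a-Arf-1, made from mice homozygous for the Cdkn2a tm1RDp allele, an altered allele of a tumour suppressor gene that every group carries, and all 5 groups are cultures of 1 line. All cells grew at 37 °C in RPMI 1640 with 10% FBS, 200 nM 12-O-tetradecanoylphorbol 13-acetate and 200 pM cholera toxin. There were 3 biological replicates, each on 1 array, in each of 5 groups. Si1 and Si6 cells received 1 of 2 small interfering RNAs (siRNAs) against Hif1a and, 24 h later, spent 24 h at 1% O2, 5% CO2 and 94% N2. The negative control and the hypoxia control spent the same 24 h under that gas, and the labels do not say what else either of these controls received. Normoxic cells grew at about 21% O2 and 10% CO2, which means that both gases differed between normoxia and the other groups. The Hif1a protein, the alpha subunit of a transcription factor, is degraded in normal oxygen and accumulates when oxygen is scarce.

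Mitosis genes are switched on together late in the cell cycle. Cdk1 with its cyclins starts mitosis, kinetochores tie chromosomes to spindle microtubules, the spindle checkpoint holds back anaphase until all are attached, and motors and bundling proteins shape the spindle and the cleavage furrow. In quiescent or arrested cells the genes are repressed as a group by the DREAM complex, and in dividing cells they are activated by B-Myb and FoxM1.

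Values are log2 intensities, so a difference of 1 is a doubling, and levels of different probe sets cannot be compared with each other. A ± after a mean is the SD over 3 arrays. For a log2 fold change, ± gives the standard error from limma. Its p-values were adjusted within each comparison over all 22180 genes by the Benjamini-Hochberg method, and a gene was called below 0.05. Pairs of arrays of the same group correlated at 0.9931 to 0.9957 over all probe sets and pairs of different groups at 0.9782 to 0.9931. Hif1a, the siRNA target, was at 8.61, 8.75 and 8.59 log2 units in Si1 cells and at 8.90, 8.91 and 8.98 in Si6 cells, against 10.68, 10.66 and 10.56 in the negative control. That left 25.3% of the negative control level in Si1 (log2 fold change −1.98 ± 0.06, limma adjusted p = 1.7e-12) and 30.7% in Si6 (−1.70 ± 0.06, adjusted p = 1.8e-11). A dimmer Hif1a probe set, with a mean of 5.40, moved by only −0.01 in Si1 and −0.07 in Si6. The probe set for Cdkn2a read between 7.83 and 8.07 in the 5 group means, and it was not known whether it lies in the altered part of the gene. The 39 mitosis genes had means over all arrays between 8.04 and 11.36 log2 units, and their within-group SD had a median of 0.06 and a highest value of 0.23. All 39 lay above the median gene, at 6.90, and dim genes were called less often. Of all genes 15.3% to 34.9% were called in a comparison, and 34.7% to 64.0% with the lowest 50% of genes left out.

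The 39 genes separated the 5 groups into a high set and a low set. Every one of the 39 was lowest either in normoxia (24 genes) or in the hypoxia control (15 genes). The highest group mean was in Si6 for 27 genes, in the negative control for 8 (Ccnb2, Bub1, Cenpa, Cenpf, Kif18a, Kif20a, Kif2c and Aspm) and in Si1 for 4 (Aurka, Aurkb, Cdca8 and Kif15). After each gene was centred on its mean over the 15 arrays, the median of the 39 genes was 0.32, 0.26 and 0.29 log2 units on the Si1 arrays and 0.46, 0.48 and 0.44 on the Si6 arrays. On the control arrays it was 0.29, 0.24 and 0.26 in the negative control, −0.39, −0.43 and −0.57 in the hypoxia control and −0.51, −0.65 and −0.46 in normoxia. The 9 arrays of the first 3 groups thus lay above the 6 others, and the hypoxia control and normoxia arrays overlapped. These are whole cultures, in which more cells in late G2 or mitosis and more of these mRNAs per cell cannot be told apart.

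**Figure D1:**
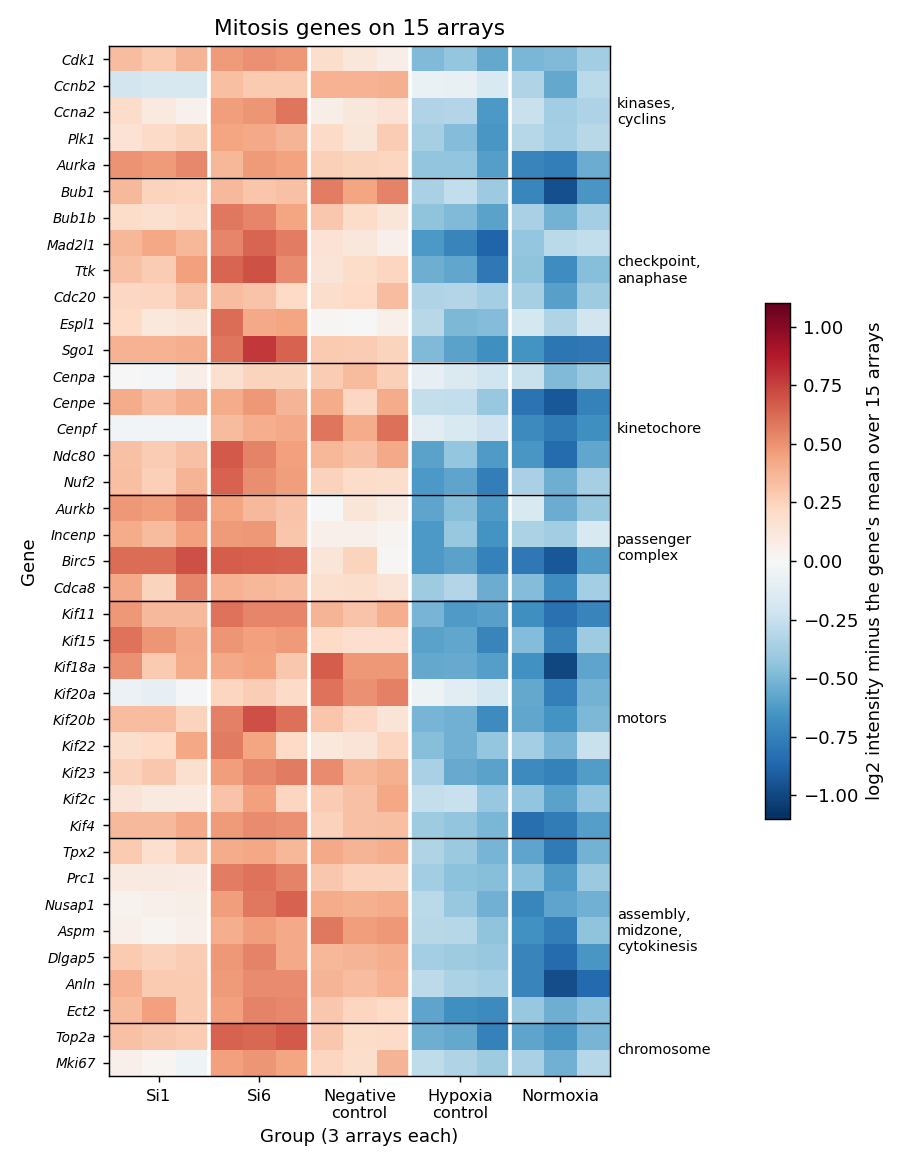
Level of each of the 39 measured mitosis genes (rows, grouped by role) on each of the 15 arrays (columns, 3 per group), as log2 intensity minus the gene's mean over all arrays; red is above and blue below that mean. The hypoxia control and normoxia columns are blue for nearly all genes, while Si1, Si6 and the negative control are mostly red, with Ccnb2, Cenpf and Kif20a pale or faintly blue in Si1.

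The promoters of these genes share letters that the choice of the list did not use. RefSeq windows from 250 bases before to 50 bases after the gene start (assembly GRCm38.p6) were at hand for 33 of the 39 genes, 2 of them with 2 windows. The letters TTTGAA, read on either strand, form the cell cycle genes homology region (CHR), which the DREAM and B-Myb complexes bind through Lin54. They occurred in the windows of 25 of the 33 mitosis genes (75.8%), against 5466 of 27025 genes of the genome (20.2%, or 17.9% of the 32851 windows). In 23 of the 33 (69.7%), against 5.72% of all genes, the letters began within 50 bases of the start, a distance chosen after the positions were seen. Birc5, Bub1, Cenpe, Kif18a, Mad2l1, Nuf2, Nusap1 and Sgo1 did not hold TTTGAA in the window. CCAAT, the letters bound by NF-Y, occurred on either strand in 23 of the 33 (69.7%), against 41.1% of all genes. ACGTG and GCGTG, the cores of the hypoxia response element, occurred in 12 (36.4%) and 19 (57.6%), against 21.8% and 35.2% of all genes. The E2F letters TTTGGCGC occurred in 2 (6.06%), against 0.585%. Sites of different motifs were counted separately and may overlap. A match describes the letters only, and base composition differs between promoters. The 4 promoters with TTTGAA whose genes moved most with either siRNA are shown here, 5′ to 3′ on the gene's strand, with TTTGAA and CCAAT in capitals in either orientation, so that ATTGG marks CCAAT on the opposite strand.
Ccnb2 (chr9:70421505-70421804, minus strand): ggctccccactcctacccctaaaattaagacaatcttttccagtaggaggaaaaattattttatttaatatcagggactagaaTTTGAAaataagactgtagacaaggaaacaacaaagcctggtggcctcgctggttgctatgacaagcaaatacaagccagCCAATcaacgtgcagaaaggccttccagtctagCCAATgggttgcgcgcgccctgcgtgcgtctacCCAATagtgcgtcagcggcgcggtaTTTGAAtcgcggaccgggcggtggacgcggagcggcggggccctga
Cenpf (chr1:189688037-189688336, minus strand): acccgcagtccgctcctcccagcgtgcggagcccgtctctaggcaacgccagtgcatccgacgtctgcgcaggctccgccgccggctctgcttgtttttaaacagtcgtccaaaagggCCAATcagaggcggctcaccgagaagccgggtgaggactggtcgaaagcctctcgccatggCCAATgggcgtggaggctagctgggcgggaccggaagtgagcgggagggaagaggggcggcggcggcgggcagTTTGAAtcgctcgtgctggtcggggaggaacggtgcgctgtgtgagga
Espl1 (chr15:102296043-102296342, plus strand): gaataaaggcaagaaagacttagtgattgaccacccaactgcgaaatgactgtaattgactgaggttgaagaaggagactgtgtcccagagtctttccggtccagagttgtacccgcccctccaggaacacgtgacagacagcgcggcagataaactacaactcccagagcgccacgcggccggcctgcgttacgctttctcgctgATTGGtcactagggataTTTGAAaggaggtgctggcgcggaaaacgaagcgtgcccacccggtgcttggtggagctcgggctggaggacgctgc
Aspm (chr1:139454523-139454822, plus strand): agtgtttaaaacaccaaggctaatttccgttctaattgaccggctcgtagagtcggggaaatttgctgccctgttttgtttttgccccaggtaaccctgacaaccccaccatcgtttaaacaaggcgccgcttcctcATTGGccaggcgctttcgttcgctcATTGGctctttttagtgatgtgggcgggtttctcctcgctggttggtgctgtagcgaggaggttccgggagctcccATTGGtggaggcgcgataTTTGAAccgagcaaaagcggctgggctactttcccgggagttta
Relative to the start, TTTGAA begins at −167 and 5 in Ccnb2, at 3 in Cenpf, at −27 in Espl1 and at 7 in Aspm. Each of the 4 also holds at least 1 CCAAT, with 3 in Ccnb2, 2 in Cenpf, 1 in Espl1 and 3 in Aspm.

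The comparison of the negative control with the hypoxia control, both hypoxic, gave the most uniform result. All 39 mitosis genes were called higher in the negative control, where 7.80% of all genes were called higher and 7.51% lower. The log2 fold changes ran from 0.44 for Espl1 to 1.12 for Kif18a, which is 1.36-fold to 2.17-fold, with a median of 0.74 against −0.01 over all genes and a largest adjusted p of 2.6e-04. For all 39, every negative control array lay above every hypoxia control array. The arrays of these groups did not overlap, in one direction or the other, for 31.3% of all genes.

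Among the mitotic kinases and cyclins, all 5 measured members were higher in the negative control. Aurka, the kinase that matures centrosomes, was at 10.22, 10.20 and 10.19 log2 units in the negative control, against 9.52, 9.52 and 9.35 in the hypoxia control, a log2 fold change of 0.74 ± 0.06 (adjusted p = 1.1e-06). Plk1, which acts at centrosomes, kinetochores and the midzone, was at 11.14, 11.07 and 11.21 in the negative control, against 10.57, 10.46 and 10.29 in the hypoxia control (0.70 ± 0.07, adjusted p = 2.4e-06). Cdk1, the kinase that drives entry into mitosis, changed by 0.62 ± 0.06, Ccna2 (cyclin A2) by 0.55 ± 0.08 and Ccnb2 (cyclin B2) by 0.49 ± 0.06. No array of one group reached into the other for any of the 5.

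The 7 genes of the spindle checkpoint and of anaphase control were all higher in the negative control as well. Mad2l1, a checkpoint protein that sequesters the anaphase activator Cdc20, was at 11.00, 10.97 and 10.90 log2 units in the negative control, against 10.21, 10.12 and 9.96 in the hypoxia control (0.86 ± 0.07, adjusted p = 3.2e-07). Bub1, a checkpoint kinase at kinetochores, was at 10.38, 10.25 and 10.36 in the negative control, against 9.46, 9.55 and 9.42 in the hypoxia control (0.85 ± 0.08, adjusted p = 1.4e-06). Sgo1, which protects centromeric cohesin, changed by 0.85 ± 0.06, and Ttk, the kinase that starts checkpoint signalling, by 0.83 ± 0.08. Bub1b, a part of the complex that inhibits Cdc20, changed by 0.72 ± 0.06 and Cdc20 itself by 0.59 ± 0.07. Espl1 (separase, the protease that cuts cohesin at anaphase) had the lowest value of the 39 genes, 0.44 ± 0.07.

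All 5 kinetochore and centromere genes were higher in the negative control. Ndc80, which with Nuf2 forms the microtubule-binding rod of the kinetochore, was at 9.46, 9.42 and 9.51 log2 units in the negative control, against 8.51, 8.67 and 8.47 in the hypoxia control (0.91 ± 0.08, adjusted p = 9.2e-07). Nuf2 was at 10.29, 10.24 and 10.23 in the negative control, against 9.41, 9.46 and 9.28 in the hypoxia control (0.87 ± 0.07, adjusted p = 4.9e-07). These partners of 1 complex differed between the groups by close to the same amount. Genes of other roles had similar values, such as Ect2 (0.91 ± 0.06) and Mad2l1 (0.86 ± 0.07). Cenpf, a large kinetochore-associated protein, changed by 0.71 ± 0.06, the kinetochore motor Cenpe by 0.66 ± 0.07 and the centromeric histone H3 variant Cenpa by 0.45 ± 0.06. The chromosomal passenger complex corrects faulty attachments and then moves to the midzone, and its 4 members, the kinase Aurkb, the scaffold Incenp, and Birc5 (survivin) and Cdca8 (borealin), which target it, changed by 0.60 to 0.79. The largest change of the 4 was in Birc5, at 8.81, 8.92 and 8.69 in the negative control, against 8.04, 8.09 and 7.93 in the hypoxia control (0.79 ± 0.08, adjusted p = 3.8e-06).

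The largest changes were in some of the 9 spindle motors. Their median, 0.80, was near those of the checkpoint genes (0.83) and of the spindle assembly, midzone and cytokinesis genes (0.82). Kif18a, a kinesin that damps the movements of aligning chromosomes, was at 8.76, 8.57 and 8.57 log2 units in the negative control, against 7.53, 7.54 and 7.49 in the hypoxia control (1.12 ± 0.10, adjusted p = 1.0e-06). Kif11, the kinesin that pushes spindle poles apart, was at 10.76, 10.70 and 10.78 in the negative control, against 9.87, 9.76 and 9.79 in the hypoxia control (0.94 ± 0.06, adjusted p = 4.5e-08). The 3 arrays of each group were far closer to each other than to the other group for both motors. Kif23, a midzone kinesin of centralspindlin, changed by 0.93 ± 0.07, and the other 6 (Kif15, Kif20a, Kif20b, Kif22, Kif2c and Kif4) by 0.64 to 0.82.

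Spindle assembly, midzone and cytokinesis genes, 7 in all, changed by 0.70 to 0.91. Ect2, the exchange factor that activates RhoA at the cleavage furrow, was at 11.60, 11.54 and 11.52 log2 units in the negative control, against 10.72, 10.63 and 10.60 in the hypoxia control (0.91 ± 0.06, adjusted p = 7.6e-08). Aspm, a spindle pole protein, was at 9.60, 9.48 and 9.50 in the negative control, against 8.72, 8.71 and 8.58 in the hypoxia control (0.86 ± 0.07, adjusted p = 8.0e-07). Both were higher on every negative control array. The chromosome structure genes Top2a (topoisomerase II alpha, which untangles sister chromatids) and Mki67 (Ki-67, which coats mitotic chromosomes) changed by 0.85 ± 0.06 and 0.59 ± 0.06.

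**Figure D2:**
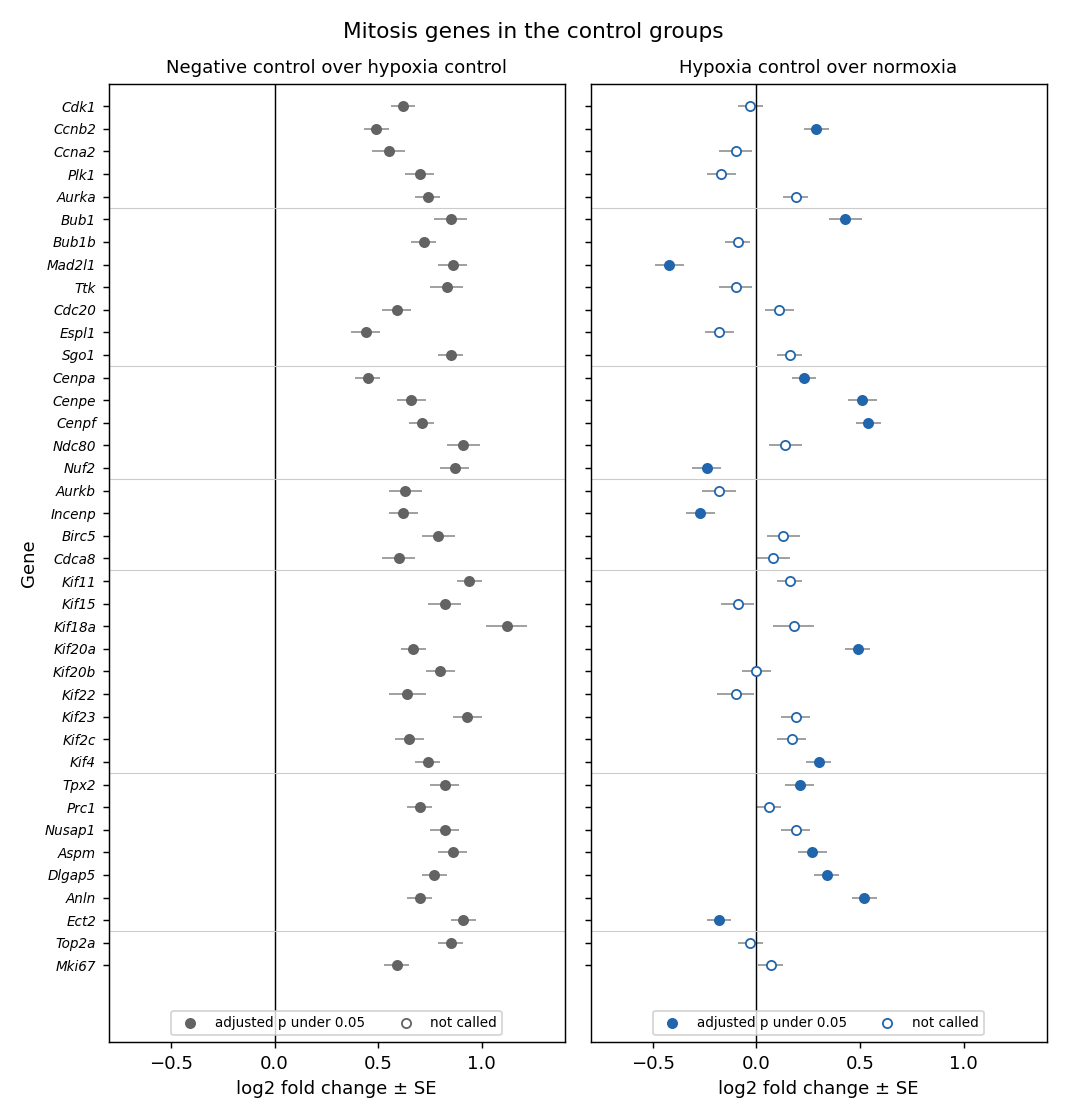
Log2 fold change ± SE (x axis) of the 39 mitosis genes (y axis, grouped by role) for the negative control over the hypoxia control (left) and the hypoxia control over normoxia (right); filled points passed the threshold. All 39 points on the left lie between 0.44 and 1.12, while those on the right lie on both sides of 0, between −0.42 and 0.54.

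In the hypoxia control against normoxia, 11 of the 39 genes (28.2%) were called higher, where 9.87% of all genes were called higher. The 4 called lower (10.3%) were close to the share of all genes called lower, 11.2%, and 24 were not called. Both shares include dim genes. With the lowest 50% of genes left out, 17 were higher and 6 lower (73.9% higher). Of the 11090 genes left, 45.2% were called, and 45.1% of these were higher. The log2 fold changes ran from −0.42 to 0.54 with a median of 0.13, against 0.00 over all genes. The hypoxia control arrays lay wholly above those of normoxia for 13 genes and wholly below for 4, where the arrays did not overlap in either direction for 35.0% of all genes. The SD of the 39 log2 fold changes was 0.24, against 0.15 for the negative control over the hypoxia control. With only the 2 compared groups in the fit, 8 were called higher and 1 lower, Mad2l1, and the falls of Incenp, Nuf2 and Ect2 had adjusted p-values of 0.061, 0.066 and 0.072. The rises of Cenpa, Aspm and Tpx2 were not called there either, at 0.068, 0.078 and 0.121. Without replicate c of the hypoxia control 16 were higher and 1 lower, without replicate a of normoxia 13 and 2, and without replicate c of normoxia 12 and 1. Without replicate a of the hypoxia control, or without replicate b of normoxia, 8 were higher and 5 lower, and the median was 0.11 and 0.05, against 0.13 with all arrays.

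The rises in the hypoxia control included 3 of the 5 kinetochore and centromere genes. Cenpf was at 9.13, 9.08 and 9.02 log2 units in the hypoxia control, against 8.55, 8.47 and 8.58 in normoxia (0.54 ± 0.06, adjusted p = 6.0e-06). Cenpe was at 9.43, 9.42 and 9.28 in the hypoxia control, against 8.88, 8.76 and 8.95 in normoxia (0.51 ± 0.07, adjusted p = 3.5e-05). Cenpa rose by 0.23 ± 0.06, and Nuf2 fell by 0.24, while Ndc80, its partner in the kinetochore rod, was not called (0.14 ± 0.08, adjusted p = 0.271). Of the spindle assembly, midzone and cytokinesis genes, 4 of 7 were called higher. Anln (anillin, a scaffold of the contractile ring) was at 10.77, 10.71 and 10.68 in the hypoxia control, against 10.33, 10.08 and 10.20 in normoxia (0.52 ± 0.06, adjusted p = 1.4e-05). Dlgap5, a spindle-stabilising protein, was at 8.78, 8.76 and 8.74 in the hypoxia control, against 8.43, 8.31 and 8.51 in normoxia (0.34 ± 0.06, adjusted p = 2.8e-04). Aspm and Tpx2, which activates Aurora A on spindle microtubules, rose by 0.27 ± 0.07 and 0.21 ± 0.07, and Ect2 fell by 0.18.

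Kif20a, the kinesin that carries the passenger complex to the midzone, was at 10.32, 10.26 and 10.18 log2 units in the hypoxia control, against 9.81, 9.62 and 9.86 in normoxia (0.49 ± 0.06, adjusted p = 3.3e-05). Kif4, a chromosome-bound kinesin, was the only other motor of the 9 called, at 0.30 ± 0.06. In the checkpoint group the 2 calls went opposite ways. Bub1 was at 9.46, 9.55 and 9.42 in the hypoxia control, against 9.10, 8.85 and 9.18 in normoxia, a rise of 0.43 ± 0.08 (adjusted p = 6.0e-04). Mad2l1 was at 10.21, 10.12 and 9.96 in the hypoxia control, against 10.42, 10.55 and 10.57 in normoxia (−0.42 ± 0.07, adjusted p = 2.0e-04). The arrays of the 2 groups did not overlap for either gene. Among kinases and cyclins only Ccnb2 was called, at 11.11, 11.10 and 11.01 in the hypoxia control, against 10.85, 10.62 and 10.88 in normoxia (0.29 ± 0.06, adjusted p = 0.003), and Cdk1 was at −0.03 ± 0.06 (adjusted p = 0.783). In the passenger complex only Incenp was called, and it fell by 0.27 (adjusted p = 0.014). Neither Top2a (−0.03 ± 0.06) nor Mki67 (0.07 ± 0.06) was called.

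Against normoxia, the negative control was higher for all 39 genes too, where 14.6% of all genes were called higher and 15.7% lower. This comparison shares arrays with both comparisons above. The log2 fold changes ran from 0.27 for Espl1 (adjusted p = 0.006, the largest) to 1.29 for Bub1 and Kif18a, with a median of 0.80, or 1.74-fold. Bub1 was at 10.38, 10.25 and 10.36 log2 units in the negative control, against 9.10, 8.85 and 9.18 in normoxia, which is 2.44-fold (1.29 ± 0.08, adjusted p = 3.9e-09). Cenpf was at 9.84, 9.66 and 9.86 in the negative control, against 8.55, 8.47 and 8.58 in normoxia, or 2.38-fold (1.25 ± 0.06, adjusted p = 3.2e-10). In all 39 genes the 3 negative control arrays lay above the 3 normoxia arrays, where the arrays did not overlap in either direction for 39.8% of all genes. By role, the median change was 1.05 for kinetochore and centromere genes, 1.04 for motors and 1.03 for spindle assembly, midzone and cytokinesis genes, against 0.70 for checkpoint, 0.59 for kinase and cyclin and 0.56 for passenger complex genes.

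With Si1 against the negative control, 11 of the 39 genes (28.2%) were called lower, where 14.8% of all genes were called lower. The 7 called higher (17.9%) were close to the share of all genes called higher, 20.2%. Both shares include dim genes. With the lowest 50% of genes left out, 20 of the 39 were called, 8 higher and 12 lower. Of the genes left, 64.0% were called, and 59.1% of these were higher. Among these brighter genes, calls were thus more often higher than lower, and those of the mitosis genes more often lower. The log2 fold changes ran from −0.61 to 0.51 with a median of 0.01, against −0.01 over all genes. The Si1 arrays lay wholly above those of the negative control for 13 genes and wholly below for 13, against 43.4% of all genes in either direction. After median centring of the arrays the calls were 8 higher and 7 lower, so the balance of the 2 directions depended on that scaling, while no called gene changed sign.

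The genes that fell with Si1 included motors, cyclin B2 and spindle proteins. Kif20a was at 10.31, 10.29 and 10.36 log2 units in Si1, against 10.97, 10.88 and 10.93 in the negative control, which is 65.6% of the negative control level (−0.61 ± 0.06, adjusted p = 1.2e-06). Ccnb2 was at 10.98, 11.00 and 11.00 in Si1, against 11.56, 11.56 and 11.57 in the negative control, or 67.5% (−0.57 ± 0.06, adjusted p = 2.4e-06). Cenpf read 9.22 on all 3 Si1 arrays, against 9.84, 9.66 and 9.86 in the negative control, or 67.6% (−0.56 ± 0.06, adjusted p = 1.3e-06). For these 3 genes the groups lay far apart, and the Si1 arrays were near those of the hypoxia control, a pair of groups that was not tested. Aspm was at 9.08, 9.05 and 9.08 in Si1, against 9.60, 9.48 and 9.50 in the negative control (−0.46 ± 0.07, adjusted p = 9.2e-05). Nusap1, which bundles spindle microtubules, was at 10.42, 10.43 and 10.44 in Si1, against 10.79, 10.77 and 10.79 in the negative control (−0.35 ± 0.07, adjusted p = 6.2e-04). Smaller falls were called for Cenpa (0.28 lower on the log2 scale), Mki67, Bub1, Kif2c (which depolymerises microtubules), Kif23 and Prc1 (which bundles midzone microtubules), of which Bub1, Kif2c, Kif23 and Prc1 lost the call under at least 1 alternative.

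The genes that rose with Si1 were led by the chromosomal passenger complex, with 3 of its 4 members called. Birc5 was at 9.29, 9.29 and 9.38 log2 units in Si1, against 8.81, 8.92 and 8.69 in the negative control, or 1.42-fold (0.51 ± 0.08, adjusted p = 6.1e-05). Aurkb was at 10.98, 10.97 and 11.05 in Si1, against 10.51, 10.64 and 10.59 in the negative control (0.43 ± 0.08, adjusted p = 5.1e-04). Incenp rose by 0.35 ± 0.07 (adjusted p = 1.0e-03), and the fourth member, Cdca8, was at 0.22 ± 0.08 with an adjusted p of 0.053. Of the other roles, the motor Kif15, which helps keep the spindle bipolar, rose by 0.31 ± 0.08, Mad2l1 by 0.27 ± 0.07, Aurka by 0.25 ± 0.06 and Cdk1 by 0.20 ± 0.06. No gene of the kinetochore and centromere group, of the spindle assembly, midzone and cytokinesis group or of the chromosome structure pair was called higher with Si1. In these groups 2, 3 and 1 were called lower.

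With Si6 against the negative control, 21 of the 39 were called higher and 1 lower, where 17.0% of all genes were called higher and 11.9% lower. The log2 fold changes ran from −0.31 to 0.52 with a median of 0.19, against −0.01 over all genes. For 26 genes the Si6 arrays lay wholly above those of the negative control and for 5 wholly below, against 39.4% of all genes in either direction. After quantile normalization the counts were 16 higher and 3 lower. With the lowest 50% of genes left out they were 25 higher and 3 lower (89.3% higher). Of the genes left there, 57.4% were called, and 63.0% of these were higher. Si1 and Si6 were set against the same 3 negative control arrays, so their values are given side by side.

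Checkpoint and anaphase genes held 5 of the Si6 rises. Mad2l1 was at 11.38, 11.48 and 11.41 log2 units in Si6, against 11.00, 10.97 and 10.90 in the negative control (0.47 ± 0.07, adjusted p = 4.5e-05). Espl1 was at 8.89, 8.69 and 8.71 in Si6, against 8.29, 8.27 and 8.33 in the negative control (0.47 ± 0.07, adjusted p = 6.5e-05), and it was at 0.14 ± 0.07 with Si1 (adjusted p = 0.145). The Si6 arrays of both genes all lay above the negative control arrays. Ttk, Sgo1 and Bub1b rose by 0.43 ± 0.08, 0.40 ± 0.06 and 0.31 ± 0.06. In the passenger complex, Birc5 was at 9.34, 9.33 and 9.32 in Si6, against 8.81, 8.92 and 8.69 in the negative control (0.52 ± 0.08, adjusted p = 7.4e-05). Incenp rose by 0.37 ± 0.07 and Aurkb by 0.30 ± 0.08, and Cdca8 was at 0.19 ± 0.08 (adjusted p = 0.123).

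Of the kinases and cyclins, 4 of 5 rose with Si6. Ccna2 was at 11.66, 11.69 and 11.79 log2 units in Si6, against 11.27, 11.33 and 11.36 in the negative control (0.39 ± 0.08, adjusted p = 9.9e-04). Cdk1 was at 11.20, 11.24 and 11.21 in Si6, against 10.93, 10.86 and 10.81 in the negative control (0.35 ± 0.06, adjusted p = 1.5e-04). Plk1 and Aurka rose by 0.20 ± 0.07 and 0.18 ± 0.06, and Ccnb2 was at −0.08 ± 0.06 (adjusted p = 0.422). Top2a rose by 0.41 ± 0.06 and Mki67 by 0.19 ± 0.06. Among motors, Kif20b, which acts in late cytokinesis, was at 8.67, 8.82 and 8.72 in Si6, against 8.42, 8.34 and 8.26 in the negative control (0.40 ± 0.07, adjusted p = 3.0e-04), and Kif15, Kif4 and Kif11 rose by 0.27, 0.20 and 0.19. Kif20a was the 1 gene called lower with Si6, at 10.61, 10.65 and 10.59 in Si6, against 10.97, 10.88 and 10.93 in the negative control (−0.31 ± 0.06, adjusted p = 0.001). Prc1 and Ect2 rose by 0.30 ± 0.06 and 0.26 ± 0.06 in the spindle assembly, midzone and cytokinesis group, and Nuf2, by 0.33 ± 0.07, was the 1 kinetochore gene called. Plk1, Aurka, Kif11, Kif15, Kif4 and Mki67 lost the call under at least 1 alternative.

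**Figure D3:**
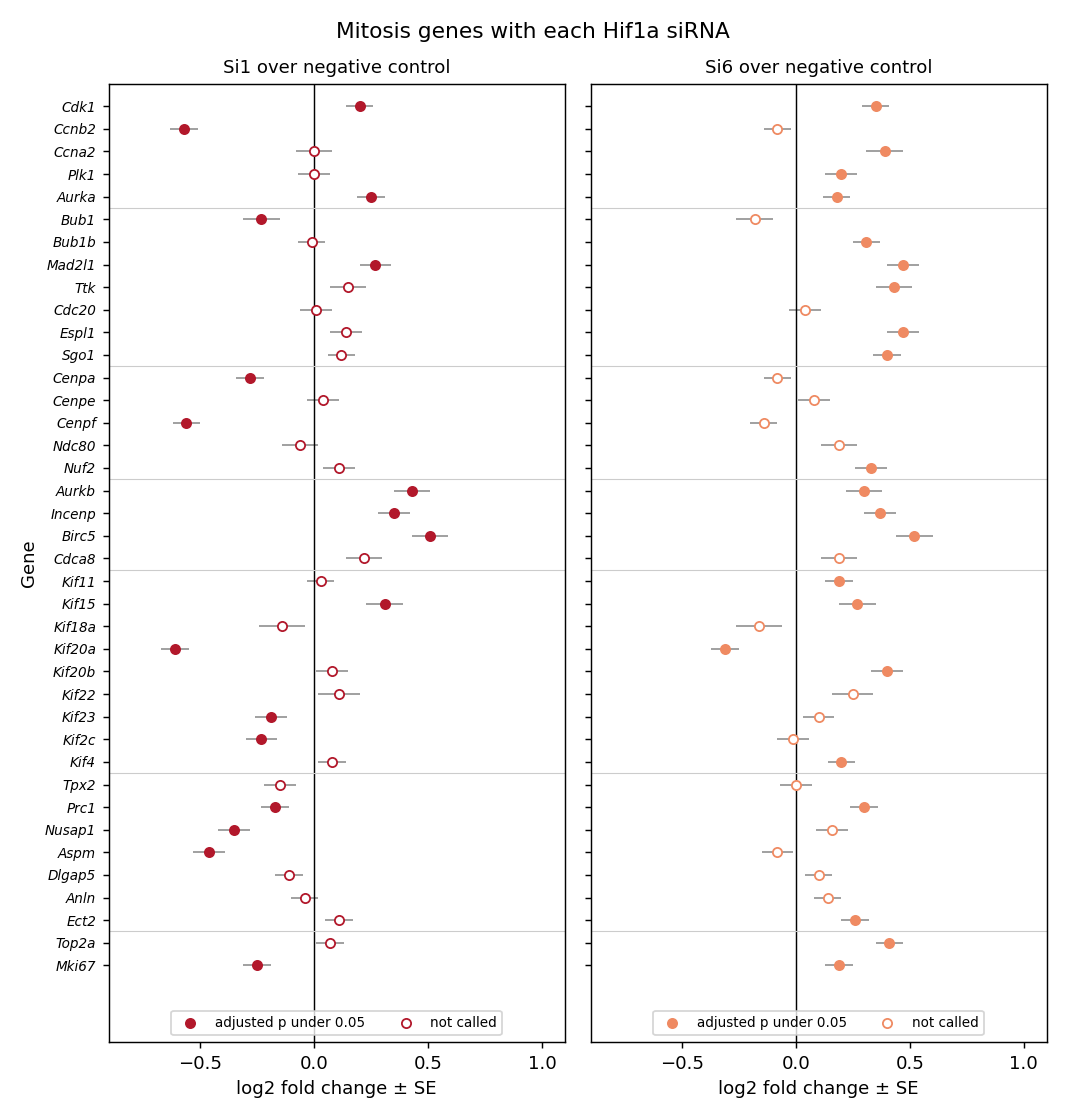
Log2 fold change ± SE (x axis) of the 39 mitosis genes (y axis, grouped by role) for Si1 (left) and Si6 (right) over the same negative control arrays; filled points passed the threshold. Si1 has 7 filled points above 0 and 11 below it, Si6 has 21 above and only Kif20a below.

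The direct comparison of Si1 with Si6 shared no control and tested the difference between the siRNAs. None of the 39 was called higher in Si1 and 24 were called lower, where 14.5% of all genes were called higher and 13.4% lower. With the lowest 50% of genes left out, 27 were called, all lower, where 54.0% of the genes left were called. The log2 fold changes ran from −0.51 to 0.13 with a median of −0.21, against 0.00 over all genes. Nusap1 was at 10.42, 10.43 and 10.44 log2 units in Si1, against 10.84, 10.96 and 11.03 in Si6, or 70.1% of the Si6 level (−0.51 ± 0.07, adjusted p = 2.5e-05). Ccnb2 was at 10.98, 11.00 and 11.00 in Si1, against 11.51, 11.47 and 11.47 in Si6 (−0.49 ± 0.06, adjusted p = 1.8e-05). Prc1 was at 10.83, 10.83 and 10.82 in Si1, against 11.29, 11.33 and 11.28 in Si6 (−0.47 ± 0.06, adjusted p = 8.5e-06). In each of these 3 genes every Si1 array lay below every Si6 array, as for 28 of the 39 genes, with 1 gene the other way round and 37.6% of all genes without overlap in either direction.

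Every role but the passenger complex held genes called lower in Si1 than in Si6. Both chromosome structure genes were lower, Mki67 by −0.45 ± 0.06 (adjusted p = 6.4e-05) and Top2a by −0.35 ± 0.06, as were 5 of 7 checkpoint genes, 4 of 5 kinetochore genes, 5 of 9 motors, 5 of 7 spindle assembly, midzone and cytokinesis genes and 3 of 5 kinases and cyclins. The 4 passenger complex genes lay between −0.01 and 0.13 and none was called. For Birc5 the difference was −0.01 ± 0.08 (adjusted p = 0.948), with Si1 at 9.32 ± 0.06 and Si6 at 9.33 ± 0.01 log2 units (SD, n = 3 each). Of the 24 calls 15 held under every alternative, and Plk1, Mad2l1, Ttk, Cenpa, Ndc80, Nuf2, Kif11, Kif2c and Anln lost theirs under at least 1, which leaves Cenpf of the 4 kinetochore genes. Leaving out any 1 array gave 16 to 20 calls, all lower. Hif1a itself differed by −0.28 ± 0.06 between Si1 and Si6 (adjusted p = 0.001).

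**Figure D4:**
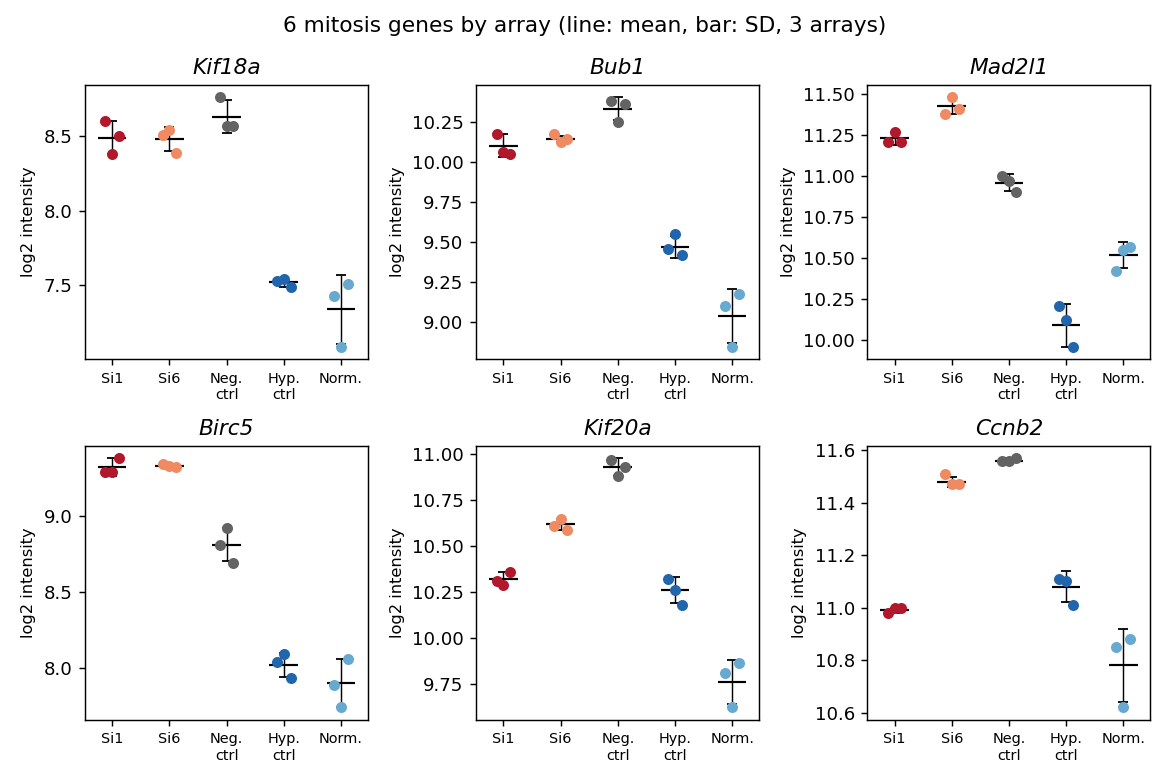
Log2 intensity (y axis) of Kif18a, Bub1, Mad2l1, Birc5, Kif20a and Ccnb2 on each array (points) of the 5 groups (x axis), with the group mean (line) and SD (bar). Birc5 and Mad2l1 are highest in the siRNA groups, Kif20a and Ccnb2 fall in Si1 to about the hypoxia control level, and all 6 genes are higher in the negative control than in the hypoxia control.

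Hypoxia and the siRNAs can be set side by side gene by gene, because the hypoxia control over normoxia shares no array with either siRNA over the negative control. Of the 11 genes higher in the hypoxia control, 6 were lower with Si1 (Ccnb2, Bub1, Cenpa, Cenpf, Kif20a and Aspm), 0 were higher and 5 were not called. Over all genes, 1052 of the 2190 higher in the hypoxia control (48.0%) were lower with Si1, so the 6 of 11 (54.5%) were close to that share. Of the 4 genes lower in the hypoxia control, 2 were higher with Si1 (Mad2l1 and Incenp), 0 were lower and 2 were not called, beside 54.9% of all genes lower in the hypoxia control that were higher with Si1. With Si6, Kif20a was the 1 of those 11 that was lower and Kif4 the 1 that was higher, while all 4 genes lower in the hypoxia control (Mad2l1, Nuf2, Incenp and Ect2) were higher. The shares over all genes were 48.9% of those higher in the hypoxia control called lower with Si6, 8.72% called higher, and 59.0% of those lower in the hypoxia control called higher. Over the 39 genes the 2 log2 fold changes correlated at −0.62 (Pearson; Spearman −0.65) for Si1 and −0.73 (Spearman −0.77) for Si6. Over all 22180 genes the values were −0.40 (Spearman −0.26) and −0.55 (Spearman −0.36). The 22180 include dim genes, while the 39 all lay above the median gene, and no correlation was taken over brighter genes alone. These correlations run across genes of the same arrays, which are not independent replicates.

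**Figure D5:**
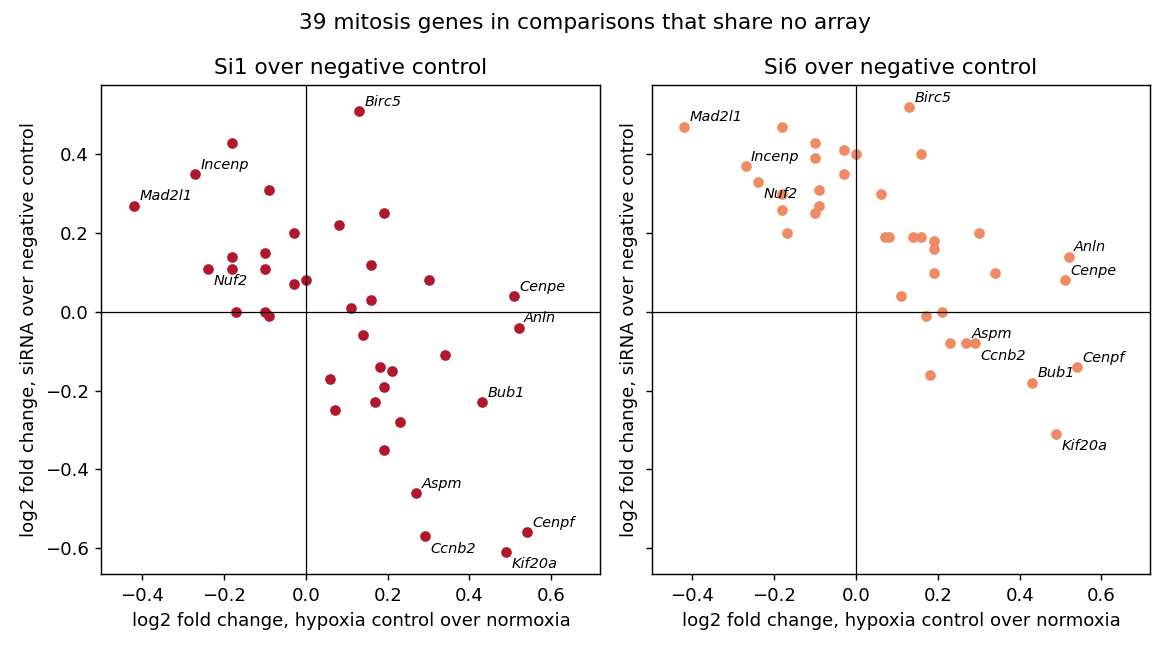
Log2 fold change of each of the 39 mitosis genes for the hypoxia control over normoxia (x axis) against Si1 (left) or Si6 (right) over the negative control (y axis). The points run from upper left to lower right (Pearson −0.62 and −0.73), but Cenpe and Anln, at 0.51 and 0.52 on the x axis, lie at 0.04 and −0.04 with Si1 and at 0.08 and 0.14 with Si6.

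Other genes of cell division were counted from further lists. In the negative control against the hypoxia control, 7.80% of all genes were called higher and 7.51% lower. Of 74 measured mitosis genes beyond the 39, 65 were higher and 0 lower in the negative control than in the hypoxia control (median 0.61), with Cenpk, a kinetochore protein, at 1.36 ± 0.08 (adjusted p = 2.6e-08) and Cep55, which recruits abscission proteins, at 1.18 ± 0.07 (adjusted p = 4.1e-08). In the hypoxia control against normoxia 7 of the 74 were higher and 21 lower, beside 9.87% and 11.2% of all genes. The rises were thus close to their share and the falls above theirs, in shares that include dim genes. Of the 39 genes 11 were higher and 4 lower there (median 0.13), while the median of the 74 was −0.04. The condensin II subunit Ncapg2 was at −0.80 ± 0.08 (adjusted p = 3.3e-06). With Si1 33 were higher and 3 lower, beside 20.2% and 14.8% of all genes. With Si6 47 were higher and 1 lower, beside 17.0% and 11.9%. Among them was the centromere protein Cenpm at 1.36 ± 0.06 with Si6 (adjusted p = 2.7e-10).

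DNA replication genes, which act earlier in the cycle, mostly fell in the hypoxia control. Of 32 measured, 0 were higher and 30 lower in the hypoxia control than in normoxia (median −0.56), beside 9.87% and 11.2% of all genes. The helicase subunit Mcm2 was at −1.12 ± 0.06 (adjusted p = 9.3e-09). In the negative control 24 were higher and 0 lower than in the hypoxia control (median 0.45), beside 7.80% and 7.51% of all genes. Against normoxia 8 were higher and 9 lower in the negative control (median −0.12), beside 14.6% and 15.7%. With Si1 31 were higher and 1 lower (median 0.62), beside 20.2% and 14.8% of all genes. With Si6 31 were higher and 0 lower (median 0.60), beside 17.0% and 11.9%. The difference between these counts and those of the mitosis genes was not tested.

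Regulators that bind or control G2/M promoters were 23 genes. In the negative control against the hypoxia control 11 were higher and 1 lower, beside 7.80% and 7.51% of all genes. Foxm1, the activator of G2/M genes, was at 9.64, 9.70 and 9.64 log2 units in the negative control, against 9.18, 9.09 and 9.04 in the hypoxia control (0.56 ± 0.05, adjusted p = 3.0e-06). Rbl1 (p107), a pocket protein of the DREAM complex, was at 10.03, 10.03 and 9.65 in the negative control, against 8.85, 8.84 and 8.79 in the hypoxia control (1.07 ± 0.10, adjusted p = 2.5e-06). Both an activator and a pocket protein were thus higher. In the hypoxia control against normoxia 3 of the 23 were higher and 10 lower, beside 9.87% and 11.2% of all genes, with Rbl1 at −1.01 ± 0.10 (adjusted p = 2.6e-06). With Si1 15 of the 23 were higher and 2 lower, beside 20.2% and 14.8% of all genes. With Si6 17 were higher and 0 lower, beside 17.0% and 11.9%. Mybl2 (B-Myb) changed most with both, at 1.07 ± 0.08 with Si1 (adjusted p = 2.4e-08) and 1.00 ± 0.08 with Si6 (adjusted p = 1.0e-07). It was lower in the hypoxia control than in normoxia (−0.47 ± 0.08, adjusted p = 3.4e-04). A dimmer Mybl2 probe set, with a mean of 5.94, moved by 0.08, −0.04 and 0.20 in these 3 comparisons. Lin54, the subunit that reads the CHR, was at 0.65 ± 0.08 with Si1 (adjusted p = 8.8e-06) and 0.92 ± 0.08 with Si6 (adjusted p = 4.5e-07). Of 14 cyclin-dependent kinase inhibitors and G1 genes, 4 were higher and 2 lower in the negative control than in the hypoxia control. The shares of all genes were 7.80% and 7.51%. Cdk2, the largest change of the 14, was lower there, at −0.74 ± 0.06 (adjusted p = 4.7e-07). Cdkn1a (p21), an inhibitor of cyclin-dependent kinases, was among those higher at 0.49 ± 0.06 (adjusted p = 3.5e-05), and it was also higher in the hypoxia control than in normoxia (0.65 ± 0.06, adjusted p = 1.3e-06). Cdkn1b (p27), another inhibitor, was at −0.94 ± 0.06 with Si1 (adjusted p = 2.7e-09) and −0.74 ± 0.06 with Si6 (adjusted p = 7.5e-08). With Si1 the rises of Ccne1 (1.02 ± 0.07, adjusted p = 1.4e-08) and Cdc25a (0.95 ± 0.07, adjusted p = 3.2e-08) were as large or larger.

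Markers of pigment cells moved in these comparisons too. Over 10 melanocyte markers (Tyr, Tyrp1, Dct, Pmel, Mlana, Mitf, Sox10, Kit, Slc45a2 and Ednrb) the mean level of an array was 10.45 to 10.53 log2 units in Si1, 11.22 to 11.30 in Si6, 10.82 to 10.85 in the negative control, 11.44 to 11.49 in the hypoxia control and 11.76 to 11.83 in normoxia. In the negative control 9 of the 10 were lower than in the hypoxia control (median −0.63), beside 7.51% of all genes. There all 39 mitosis genes were higher. In Si1 all 10 were lower than in Si6 (median −0.71), beside 13.4% of all genes. There 24 mitosis genes were lower as well. With Si6 against the negative control 6 of the 10 were higher and 0 lower, beside 17.0% and 11.9% of all genes. With Si1 6 were lower and 0 higher, beside 14.8% and 20.2%. In the hypoxia control against normoxia 6 were lower and 0 higher, beside 11.2% and 9.87%. Lists for fibroblasts (6 genes), keratinocytes (5), macrophages (6) and endothelial cells (6) had array means between 5.61 and 6.56 log2 units. Single genes were brighter, with group means of 7.96 (Si1) to 9.35 (normoxia) for Col1a1 and 7.93 (normoxia) to 9.65 (Si1) for Cd68. None of the keratinocyte or endothelial genes was called in the 6 comparisons (0 of 66 tests by limma, with 5 at an unadjusted p under 0.05). The fibroblast list had 2 or 3 calls in every comparison, with Col1a1 called in all 6, where 15.3% to 34.9% of all genes were called. Col1a1 had a log2 fold change of −0.81 ± 0.09 (SE) with Si1 and −0.36 ± 0.09 with Si6 against the negative control, and of 0.43 ± 0.09 in the negative control against the hypoxia control. In the hypoxia control it was at 49.9% of its normoxia level (adjusted p = 7.1e-07 by limma). In the macrophage list Cd68 was at 1.33 ± 0.08 with Si1 against the negative control (adjusted p = 4.2e-09) and 1.13 ± 0.08 in Si1 against Si6 (adjusted p = 4.4e-08 by limma), and Itgam was at 0.22 ± 0.07 with Si1. Cd68 was also higher and Lyz2 lower in the hypoxia control than in normoxia (0.46 ± 0.08 and −0.53 ± 0.12). The part of any of these markers in the values of the mitosis genes was not tested.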

How the data were processed

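The authors deposited log2 intensities for 15 one-colour Affymetrix arrays; RMA and Partek are named per the submitters' processing notes, without version or settings. The genome build is not given in the sources used here, nor is any batch. RMA-type normalization between arrays hides a change shared by all genes, and the file has no detection calls. Of 41345 probe sets, 23521 had exactly 1 symbol in the platform annotation, and the brightest per gene left 22180 genes. The fit was made with limma (version 3.58.1, R 4.3.3) on all 15 arrays with a mean for each of 5 groups (lmFit and eBayes, two-sided, Benjamini-Hochberg over all genes of a comparison, threshold 0.05), and was tested on simulated data. The number of arrays, 3 per group, limits the precision.

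The members and the other lists were chosen with earlier results of these data known, so no p-value is adjusted over a list. Per-array values are given for up to 2 called members with the largest change per role and comparison. Genes named from the further cell division lists are among the 4 called genes with the largest change in that comparison. Not all of those are named. Replicates are described as biological, but nothing says whether cultures were set up on separate days. Promoter sequences and coordinates are RefSeq's, assembly GRCm38.p6, matched by symbol. Alternatives were 2 other scalings, 2 filters on dim genes, averaged probe sets, trend and robust moderation, the replicate letter as a block, only the compared groups, and leaving out each array.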

Additional observations from a re-analysis of the deposited data

How the results depend on the processing

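All 39 mitosis genes stayed higher in the negative control than in the hypoxia control and than in normoxia under the 14 alternatives run for each, and no mitosis gene changed sign where called in any of the 6 comparisons. For the hypoxia control against normoxia, 15 genes were called, where 21.0% of all genes were called. The count was 23 (17 higher, 6 lower) with the lowest 50% of genes left out, where 45.2% of the genes left were called. It was 9 (8 higher, 1 lower) with only the compared groups in the fit, and leaving out 1 array gave 12 to 17. Fewer genes tested or fewer arrays in the fit change these counts by construction. For Si1 against the negative control, 18 calls became 15 to 18 without 1 array and 15 after median centring, where 53.3% of the called were higher, against 38.9%. For Si6 against the negative control, 22 calls became 18 to 22 without 1 array and 19 after quantile normalization, where 84.2% of the called were higher, against 95.5%. For Si1 against Si6, 24 calls became 16 to 20 without 1 array. The calls that held under every alternative were 9 of 15 for the hypoxia control, 14 of 18 for Si1, 16 of 22 for Si6 and 15 of 24 for Si1 against Si6. With the replicate letter as a block (replicate block) 16 genes were called in the hypoxia control against normoxia, 39 in each comparison of the negative control with the other controls, 17 with Si1, 21 with Si6 and 24 between the siRNAs. The letters did not pair the arrays, since 30 correlations between the deviations of same-lettered arrays ran from −0.22 to 0.20, and 3 were over 0.1. Signal over background could not be judged without detection calls, and the cause of these changes was not tested further.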
